A study of Mus musculus with 12 samples.

Results

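Liver RNA of mice that had received injections of pregnenolone 16α-carbonitrile (PCN) on a high-fat diet was compared with liver RNA of mice on the same diet that had received no injection. The difference between these groups holds the effect of the injections and of the compound together. The genes described are those that the authors' deposited table of this comparison gives with values: 809 genes, of 26031 gene identifiers that had counts in some library of the series. All 809 passed an adjusted p of 0.05 in the authors' DESeq2 analysis, so the list itself is a description of what that test called and supports nothing further. The series held 12 libraries of C57BL/6N liver, 3 in each of 4 groups, made from total RNA. The uninjected high-fat-diet group (HFD, replicates 4, 30 and 38) ate the diet for 15 weeks from 6 weeks of age. The PCN group (HFD PCN, replicates 5, 11 and 27) ate the same diet and was injected intraperitoneally with 50 mg/kg PCN once daily for 4 days. A vehicle group (HFD vehicle, replicates 15, 23 and 55) ate the diet and was injected with 30% DMSO in corn oil over the same 4 days, and its values are given for the genes described in most detail. The fourth group (replicates 8, 17 and 19) ate regular chow without injection. The labels give no sex, do not name the solvent of the PCN injections and leave unstated whether replicates came from different animals, so p-values measure only the spread between these samples.

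PCN is a synthetic steroid that activates PXR, the pregnane X receptor, in rodents, where liver and gut express it most. The bound receptor pairs with the retinoid X receptor and switches on genes that oxidise, conjugate and export drugs, steroids and bile acids. PXR has also been linked to liver cholesterol synthesis, fat storage and glucose output. In the acute-phase response, which follows injury or inflammation, hepatocytes secrete defence proteins into blood. A value for 1 library is its normalized read count, the count divided by a size factor that puts all 12 libraries on 1 scale. Group values are means ± SD with n = 3, and a fold is the ratio of group means. The log2 fold changes that the authors deposited beside their adjusted p-values were often much smaller than the log2 of this ratio. They were 3.41 against 7.38 for Cyp2c55, 1.08 against 3.09 for Orm2 and -1.54 against -3.4 for Gadd45g. Rose and fell refer to genes called in the authors' deposited table.

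Of an estimated 25656 genes that the authors tested, 3.15% were called, 487 higher with PCN (1.9%) and 322 lower (1.26%). The median fold was 1.87 among the genes that rose and 2.09 among those that fell. At least a 2-fold ratio of means was seen for 193 higher and 185 lower genes, and at least a 10-fold ratio for 22 higher and 17 lower genes. The PCN and HFD libraries did not overlap for 793 of the 809 genes, which had been chosen for differing. The genes nearest the threshold were Irf3, an interferon regulatory factor, and H2afx, a histone variant, each at adjusted p = 0.04936 in the authors' deposited table, and genes just outside it were not analysed here. In the GENCODE annotation 466 of the higher and 289 of the lower genes were protein coding.

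The calls depended on the test. A DESeq2 refit on the listed counts passed 349 higher and 223 lower genes. Its dispersions came from the 809 listed genes alone and no other gene could pass, so it is no separate test of the calls. An edgeR quasi-likelihood test on the same counts covered the 809 listed genes only, with p-values adjusted as if over 25656 genes. It passed 138 genes (0.538% of the 25656), 85 higher and 53 lower. Genes not listed were not tested by edgeR and could not pass. The 0.538% is therefore not a share of genes tested by edgeR and cannot be compared with the authors' 3.15%. At an unadjusted p under 0.05 edgeR passed 808 of the 809, which had been chosen on the same counts. Unadjusted counts for these genes, here and below, were thus close to fixed in advance and support nothing. Without HFD replicate 4 edgeR passed 0 genes (804 unadjusted), without HFD replicate 30 it passed 10 higher and 16 lower, and without HFD replicate 38 it passed 35 higher and 23 lower. Without PCN replicate 5 it passed 12 higher and 9 lower, without PCN replicate 27 it passed 10 higher and 6 lower, and without PCN replicate 11 it passed 121 higher and 56 lower. The authors' deposited table of vehicle against HFD called 206 genes (0.792% of 26015 tested), and their table of PCN against vehicle called 442 (1.71% of an estimated 25879). By edgeR 1 gene passed in the former, Orm2 (adjusted p = 0.0211). In the latter 20 passed, Elovl6 (adjusted p = 0.0206) among them. Most calls given below for those comparisons therefore rest on the authors' test alone. These comparisons share the HFD or the PCN libraries with the one described, so their values are given side by side and no agreement between them is counted.

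Summed counts were 7466378 to 38161486 in the HFD libraries and 19773547 to 22039805 in the vehicle libraries, and totals of the PCN libraries, estimated from size factors, were 11400000 to 35000000. HFD replicate 38 was the shallowest HFD library and PCN replicate 11 the shallowest PCN library. Hepatocyte markers (Alb, Ttr, Apob, Hnf4a and others) were present in every library measured, with summed levels of 1678113 to 2249720 in HFD and 1547236 to 2213591 in vehicle libraries. Over the 5 hepatocyte markers with PCN counts the sum was 1518518 to 2060668 in HFD and 878051 to 1366023 in PCN libraries, lower in each PCN library. Of 25 macrophage markers 1 fell (Cd14), and of 29 stellate and matrix markers 3 fell (Col1a1, Col1a2 and Col6a3). Of 16 endothelial markers 1 fell (Lyve1) and of 10 cholangiocyte markers 1 fell (Krt23), with 0 rising in each of these lists. The shares called were 4%, 10.3%, 6.2% and 10%, against 3.15% over all genes. Summed stellate and matrix markers were 19340 to 26259 in HFD and 10174 to 17629 in vehicle libraries, and summed macrophage markers 13159 to 20561 and 9717 to 13947. Markers have PCN counts only where a deposited table called them, and over those markers the sums of these lists were lower in every PCN library than in every HFD library. They were 2857 to 4072 against 4430 to 7266 for 9 stellate and matrix markers, 236 to 290 against 323 to 522 for 4 macrophage markers and 411 to 414 against 586 to 635 for 4 cholangiocyte markers. Markers with PCN counts, those of hepatocytes included, had thus been chosen for differing in some comparison, and their sums do not describe the whole lists. In HFD the 4 macrophage markers held 323 to 522 of the 13159 to 20561 of their list. The part of these shifts in the results was not tested. In bulk liver RNA, fewer cells of a type and less RNA per cell cannot be told apart.

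**Figure D1:**
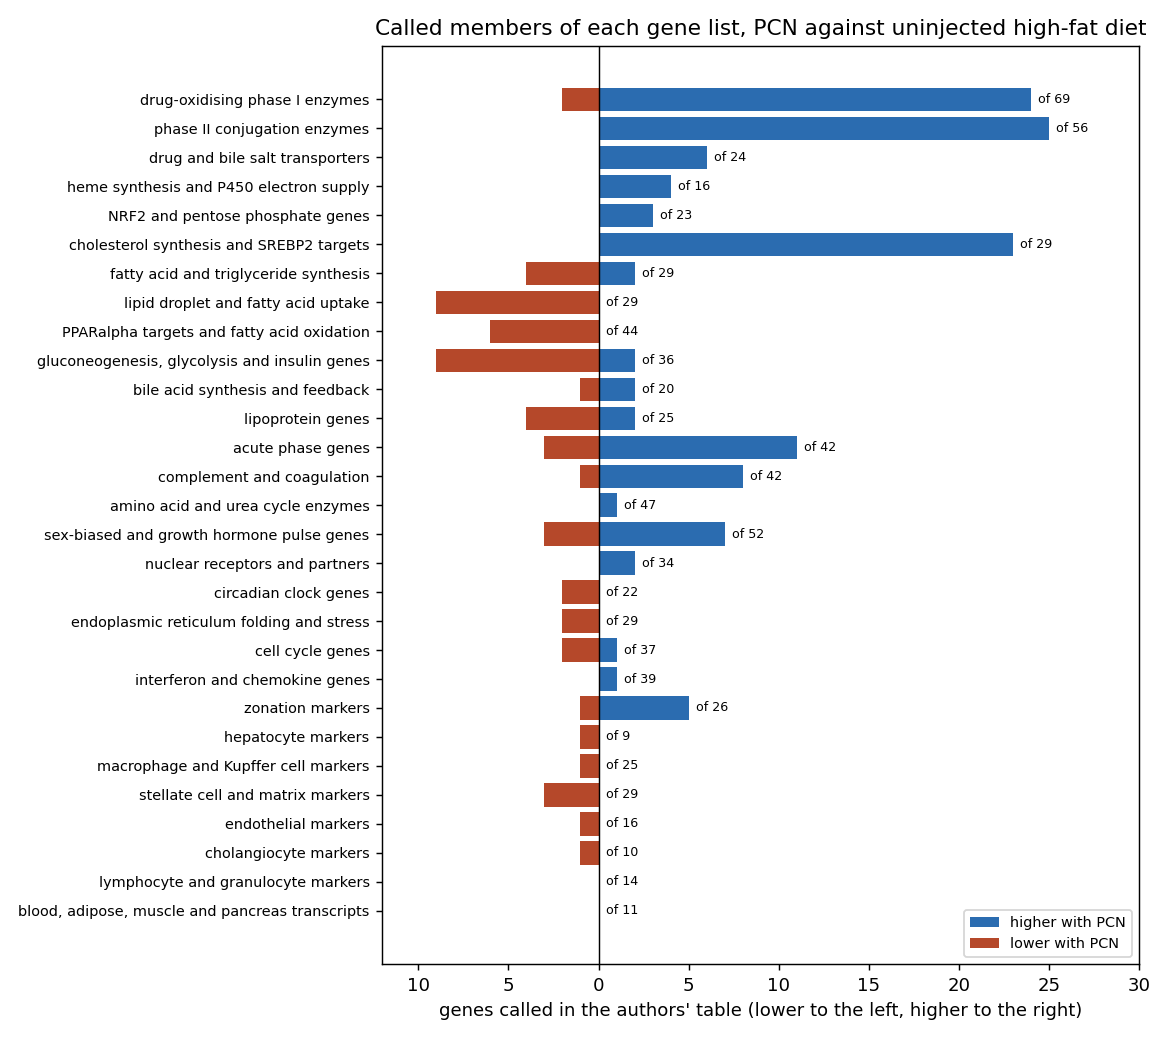
Number of genes of each list called in the authors' table of PCN against uninjected high-fat diet, with bars to the right for higher and to the left for lower genes, beside the number of list genes measured. Phase I enzymes (24 higher), phase II enzymes (25 higher) and cholesterol synthesis (23 higher) had the longest bars to the right, and lipid droplet and glucose genes (9 lower each) the longest to the left.

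Enzymes of drug oxidation, the first phase of drug metabolism, were among the genes with the largest ratios. Of 69 measured phase I enzymes, 24 rose, 2 fell and 43 were not listed (37.7% called, against 3.15% over all genes). By edgeR 10 passed, all higher. Cyp3a11, the main PXR-responsive drug- and steroid-oxidising cytochrome P450 of mouse liver, had normalized counts of 24226, 11393 and 30286 in HFD replicates 4, 30 and 38. The PCN replicates 5, 11 and 27 had 928956, 362468 and 763007. Every PCN library lay more than 10-fold above every HFD library, with PCN replicate 11 the lowest of the PCN group. Cyp3a11 rose 31.2-fold (adjusted p = 3.67e-36 in the authors' deposited table, 0.0138 in edgeR). Vehicle libraries had 5898, 21996 and 3925, a group mean 2.07-fold below HFD (adjusted p = 0.9298 in the authors' deposited table of that comparison), and the ratio of PCN to vehicle was 64.6.

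Cyp3a11 (ENSMUSG00000056035) lies on the minus strand of chromosome 5 at 145854426 to 145879964 in GRCm38, in a run of 4 called genes within 339 kb, all higher, with Cyp3a44, Cyp3a25 and Cyp3a59. Reads of such near-identical paralogs can be assigned to the wrong copy, so the split between them is uncertain. Their start-site windows are shown because the neighbours rose together, Cyp3a11 from a high and Cyp3a44 from a low HFD level. Each window runs 5′ to 3′ on the gene's strand from 250 bases before to 50 bases after the start given by RefSeq for GRCm38.p6. Capitals mark AGTTCA on either strand, a half-site that PXR can bind. The variant AGGTCA was not searched, and both windows hold it in lower case, so a window without capitals may still hold a half-site. The Cyp3a11 window is chr5:145879805-145880104 and the Cyp3a44 window is chr5:145805825-145806124, both on the minus strand.
Cyp3a11: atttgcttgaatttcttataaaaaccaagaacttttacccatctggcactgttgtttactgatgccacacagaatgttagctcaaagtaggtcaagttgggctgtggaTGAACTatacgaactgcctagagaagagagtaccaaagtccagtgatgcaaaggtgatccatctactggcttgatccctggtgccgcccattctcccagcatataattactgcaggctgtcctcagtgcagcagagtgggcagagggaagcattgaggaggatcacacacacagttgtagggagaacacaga
Cyp3a44: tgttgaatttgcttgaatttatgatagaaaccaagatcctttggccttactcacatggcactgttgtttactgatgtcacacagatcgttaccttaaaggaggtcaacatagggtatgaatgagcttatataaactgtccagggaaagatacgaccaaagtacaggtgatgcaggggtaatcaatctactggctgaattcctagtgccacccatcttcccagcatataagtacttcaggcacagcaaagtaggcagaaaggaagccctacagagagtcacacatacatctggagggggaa
The Cyp3a11 window held 1 match and the Cyp3a44 window 0. AGTTCA stood in 15.7% of 27025 genes with a window, in 14.6% of the 371 higher genes with one, in 18.7% of the 230 lower genes and in 2 of 21 phase I risers. Pairs of AGTTCA as direct repeats spaced by 3 or 4 bases stood in 0 of the higher genes and in 0 and 4 of all genes. These windows cover the core promoter only and say nothing of distal elements.

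Cyp3a44, a female-biased relative of Cyp3a11, had 38.5, 21.6 and 27.2 in HFD and 1611, 681 and 1185 in PCN libraries, 39.8-fold higher (adjusted p = 1.3e-50 in the authors' deposited table, 0.00667 in edgeR). Cyp3a59 rose 21.2-fold, from 516 ± 31.9 to 10930 ± 6110, and Cyp3a25, which had 9599, 10838 and 8879 in HFD, rose 2.93-fold. For each of these 4 neighbours all PCN libraries lay above all HFD libraries, where 793 of the 809 listed genes had no overlap. The lowest fold was that of Cyp3a25. Cyp3a16 and Cyp3a41b, other female-biased members, rested on 10 or fewer HFD reads in all and are named without a fold.

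Cyp2c55, a PXR-responsive P450 that acts on arachidonic acid, gave the highest ratio among genes with a mean of at least 50. Its HFD libraries held 42.0, 31.6 and 38.6 and its PCN libraries 8780, 2122 and 7755 normalized counts. The groups stood far apart, and PCN replicate 11 was again the lowest of its group. Cyp2c55 rose 166-fold (adjusted p = 1.51e-19 in the authors' deposited table, 0.00667 in edgeR), while vehicle was 2.49-fold below HFD (adjusted p = 0.2362 in the authors' deposited table). Cyp2c29, an abundant relative, rose 6.38-fold, with 25931, 26905 and 9215 in HFD and 182985, 41733 and 171370 in PCN libraries (adjusted p = 0.002733 in the authors' deposited table, 0.136 in edgeR). The vehicle mean of Cyp2c29 was 1.81-fold that of HFD, a difference that did not pass (adjusted p = 0.528 in the authors' deposited table).

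Ces2a, a carboxylesterase that cleaves drug and lipid esters, had 2018, 2447 and 1320 in HFD and 81312, 44309 and 73395 in PCN libraries. The PCN values lay more than 10-fold above every HFD value, and the vehicle values of 4867, 3197 and 2295 lay close to HFD. Ces2a rose 34.4-fold (adjusted p = 4.52e-71 in the authors' deposited table, the lowest of the table, and 0.00667 in edgeR). The Ces genes did not all move together: Ces1c, Ces1d, Ces1f and Ces1g rose 1.44- to 2.36-fold in 1 run on chromosome 8, Ces2g rose 1.79-fold, and Ces2e fell 1.84-fold. Ces2e was as low with vehicle, at 0.546 of HFD (adjusted p = 6.33e-05 in the authors' deposited table), and 0.995 of vehicle with PCN. Ces2c was called at 2.24-fold, although its lowest PCN library (419) lay below its highest HFD library (504).

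Akr1b7, an aldo-keto reductase of lipid aldehydes, had 3.0, 4.2 and 0.0 in HFD and 197, 48.3 and 234 in PCN libraries, 66.6-fold higher (adjusted p = 5.98e-17 in the authors' deposited table, 0.0281 in edgeR). That fold rested on 11 HFD reads and was 105-fold without HFD replicate 30. Cyp2a5, which oxidises nicotine and coumarin, rose 5.12-fold, from 8057, 9955 and 4814 to 52401, 24420 and 39955. Cyp1a2, which oxidises caffeine and is a target of the aryl hydrocarbon receptor, rose 5.6-fold (adjusted p = 2.07e-09 in the authors' deposited table, 0.0516 in edgeR). Its vehicle mean was also higher than HFD, by 3.07-fold (adjusted p = 0.009658 in the authors' deposited table). Aldh1a1, a retinal dehydrogenase, rose 2.36-fold, and Aldh3a2, a fatty aldehyde dehydrogenase, fell 1.41-fold.

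**Figure D2:**
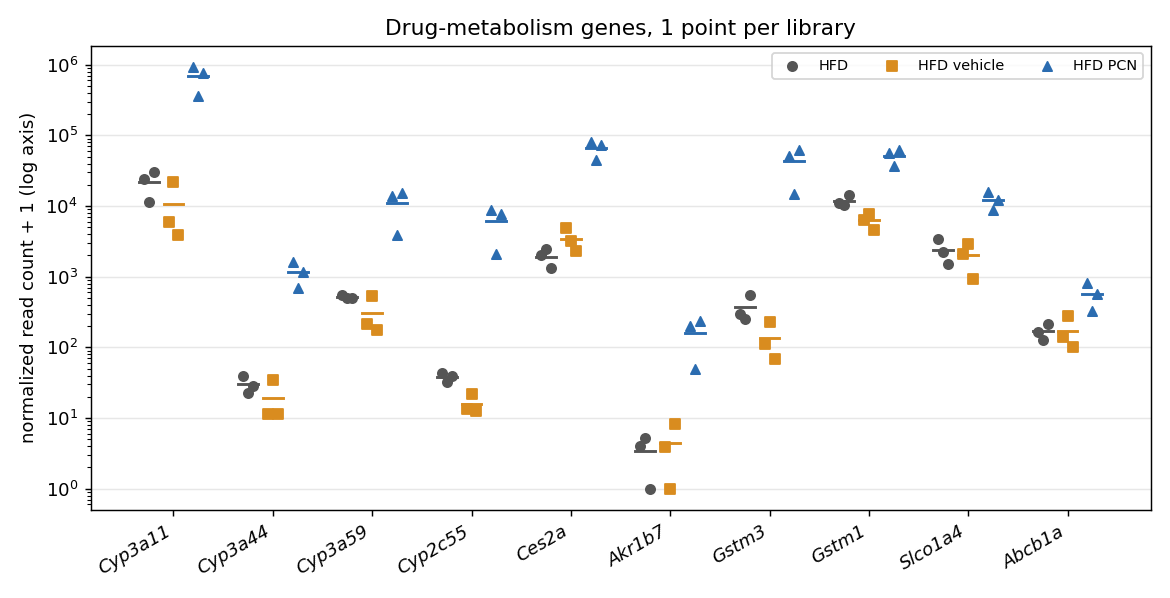
Normalized read count plus 1 on a log axis for 10 drug-metabolism genes, 1 point per library, with HFD as circles, HFD vehicle as squares and HFD PCN as triangles, and a line at each group mean. For every gene all 3 PCN points lie above all HFD and vehicle points, as for Cyp3a11 (362468 or more with PCN, 30286 or less without).

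Of 56 phase II enzymes, which couple drugs to glutathione, glucuronic acid or sulfate, 25 rose, 0 fell and 31 were not listed. The share called was 44.6%, against 3.15% over all genes, and edgeR passed 5. Gstm3, a glutathione transferase, had 297, 249 and 556 in HFD and 51925, 14892 and 61959 in PCN libraries. The lowest PCN library lay more than 10-fold above the highest HFD library. Gstm3 rose 117-fold (adjusted p = 4.84e-18 in the authors' deposited table, 0.0083 in edgeR), and vehicle was 2.71-fold below HFD (adjusted p = 0.09647 in the authors' deposited table). It stands in a run of 6 called Gstm genes within 149 kb of chromosome 3, all higher, whose reads can be shared between copies. Gstm1 rose 4.39-fold, from 11800 ± 2150 to 51870 ± 12700, Gstm2 rose 6.3-fold, and Gstm4, Gstm5 and Gstm6 rose 1.88- to 2.22-fold.

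Vehicle and PCN stood on opposite sides of HFD for several phase II genes. Gstm1 had 6456, 7825 and 4515 with vehicle against 10947, 10212 and 14249 in HFD, a 1.88-fold fall (adjusted p = 0.02322 in the authors' deposited table of vehicle against HFD). Ugt1a9, a glucuronosyltransferase, had 63.6, 220 and 86.3 with vehicle, 532, 485 and 1075 in HFD and 1467, 1208 and 1942 with PCN. It rose 2.21-fold over HFD (adjusted p = 0.00875 in the authors' deposited table, 0.229 in edgeR), whereas its ratio of PCN to vehicle was 12.5. In the vehicle comparison the authors' deposited table called 0 of the 56 genes higher and 4 lower, and in PCN against vehicle it called 17 higher and 0 lower. Folds over the uninjected group were therefore smaller than folds over vehicle for Gstm1, Gstm2, Gstm3, Ugt1a5 and Ugt1a9.

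Ugt1a1, which conjugates bilirubin, had 5756, 5323 and 4390 in HFD and 16677, 10791 and 13314 in PCN libraries. It rose 2.64-fold with no overlap (adjusted p = 1.42e-09 in the authors' deposited table, 0.0388 in edgeR), and its vehicle mean was 1.21-fold above HFD. The Ugt1a genes share their last exons, so counts of single members are uncertain. Ugdh, which makes the glucuronic acid donor, rose 2.52-fold and Papss2, which makes the sulfate donor, 2.59-fold. The Gsta run on chromosome 9 held 5 called genes, all higher. Gsta1 rose 10.9-fold, and 20.5-fold without HFD replicate 38, whose 136 stood above the 39.5 and 34.9 of the other HFD libraries.

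Of 24 transporters of drugs and bile salts 6 rose and 0 fell (25% called, against 3.15% over all genes), and edgeR passed 1. That gene, Slco1a4, takes up organic anions from blood. It had 3439, 2208 and 1520 in HFD, 2120, 2937 and 940 with vehicle and 15611, 8821 and 11996 with PCN. The HFD and vehicle ranges overlapped and all PCN libraries lay above both. Slco1a4 rose 5.08-fold (adjusted p = 4.19e-12 in the authors' deposited table, 0.0346 in edgeR). The efflux pumps Abcb1a and Abcc3 rose 3.4- and 1.61-fold, and Abcg5 and Abcg8, which together export sterols into bile, rose 1.81- and 1.66-fold.

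Of 16 genes for heme synthesis and electron supply to P450s, 4 rose and 0 fell (25% called, against 3.15% over all genes). By edgeR 0 passed at the adjusted threshold and 4 at an unadjusted p under 0.05. Por, the reductase that passes electrons to microsomal P450s, had 11765, 12832 and 8460 in HFD, 23123, 17851 and 17122 with vehicle and 24244, 15849 and 22250 with PCN. Vehicle and PCN values overlapped each other and both lay above HFD. Por rose 1.89-fold (adjusted p = 0.002404 in the authors' deposited table, 0.191 in edgeR) and was 1.76-fold higher with vehicle alone (adjusted p = 0.02591 in the authors' deposited table). Cyb5a, which encodes cytochrome b5, rose 2.11-fold with vehicle at 1.11-fold. Alas1, the first enzyme of heme synthesis, was not listed here, at 30310 ± 5620 in HFD and 19230 ± 7150 with PCN.

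Nr1i2, which encodes PXR, was not listed, and its PCN counts were not analysed here. Nr1i3, which encodes the related receptor CAR, had 3373, 3530 and 3809 in HFD, 6423, 4750 and 5359 with vehicle and 5534, 5299 and 6799 with PCN. It rose 1.65-fold (adjusted p = 0.0002874 in the authors' deposited table, 0.103 in edgeR), with vehicle at 1.54-fold (adjusted p = 0.03709 in the authors' deposited table). Esr1, an estrogen receptor, rose 2.21-fold with vehicle at 1.73-fold. These were the 2 genes called among 34 nuclear receptors and partners (5.9%, against 3.15% over all genes). Of 23 NRF2 and pentose phosphate genes 3 rose (Gsr, Keap1 and Txn1), or 13%, against 3.15% over all genes. The largest ratio of the 3 was 1.97.

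Among the 29 lists, cholesterol synthesis had the largest share of its genes called (79.3%, against 3.15% over all genes). Of 29 genes of the pathway and of its regulator SREBP2, a factor that switches the pathway on when cell sterols run low, 23 rose and 0 fell. All 23 had no overlap between HFD and PCN libraries, as had 793 of the 809 listed genes. By edgeR 10 of the 23 passed. The smallest fold was 1.58, for Acat2, at the entry to the pathway. In the vehicle comparison the authors' deposited table called 0 of the 29, and in PCN against vehicle it called 13 higher and 0 lower.

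Mvk, the kinase that phosphorylates mevalonate, had 175, 188 and 263 in HFD, 337, 183 and 581 with vehicle and 1084, 725 and 1239 with PCN. The vehicle libraries overlapped HFD at their lower end and all PCN libraries lay above both groups. Mvk rose 4.87-fold (adjusted p = 1.67e-17 in the authors' deposited table, 0.0119 in edgeR). Hmgcs1, an early enzyme of the pathway, rose 3.71-fold. Cyp51 and Msmo1, which demethylate lanosterol and its products, rose 6.44- and 6.37-fold. Dhcr7, the last enzyme of 1 branch, had 436, 465 and 701 in HFD and 1843, 1856 and 2092 with PCN, 3.61-fold higher (adjusted p = 1.3e-16 in the authors' deposited table, 0.0119 in edgeR).

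Several cholesterol genes varied within the uninjected and vehicle groups in the same libraries. Sqle, which oxidises squalene, had 345, 294 and 1234 in HFD, 618, 369 and 2420 with vehicle and 4557, 2355 and 5944 with PCN. HFD replicate 38 and vehicle replicate 55 were the highest of their groups, and vehicle replicate 55 lay just above the lowest PCN library. Sqle rose 6.86-fold (adjusted p = 0.01477 in the authors' deposited table, 0.0962 in edgeR), and 13.4-fold without HFD replicate 38. Leaving out that library also moved Mvd from 6.59- to 10.6-fold and Fdps from 3.99- to 7.73-fold. Over the 23 risers the median log2 difference from the HFD mean was 0.51 in HFD replicate 38 against -0.3 and -0.33 in replicates 4 and 30. It was 0.17, -0.45 and 0.98 in vehicle replicates 15, 23 and 55 and 1.85, 1.51 and 2.13 in PCN replicates 5, 11 and 27. Tm7sf2, a sterol reductase, varied little within groups. It had 1208, 1351 and 1291 in HFD, 1371, 1384 and 1501 with vehicle and 3304, 4304 and 3587 with PCN, 2.91-fold higher (adjusted p = 2.12e-19 in the authors' deposited table, 0.0083 in edgeR).

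The start-site window of Hmgcs1 is shown because it was the 1 window among 16 cholesterol risers with a window that held TCACNCCAC, a sterol element bound by SREBP factors, in capitals (chr13:119690101-119690400, plus strand, RefSeq, GRCm38.p6).
Hmgcs1: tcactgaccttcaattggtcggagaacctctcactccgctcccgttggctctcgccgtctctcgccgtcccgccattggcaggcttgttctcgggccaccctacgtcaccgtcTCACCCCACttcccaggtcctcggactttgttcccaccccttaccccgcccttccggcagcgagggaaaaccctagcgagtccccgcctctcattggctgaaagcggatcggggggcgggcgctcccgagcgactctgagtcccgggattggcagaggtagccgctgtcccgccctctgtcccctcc
TCACNCCAC, searched on both strands, stood in 1.44% of all 27025 genes with a window and in 1.89% of the higher genes.

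**Figure D3:**
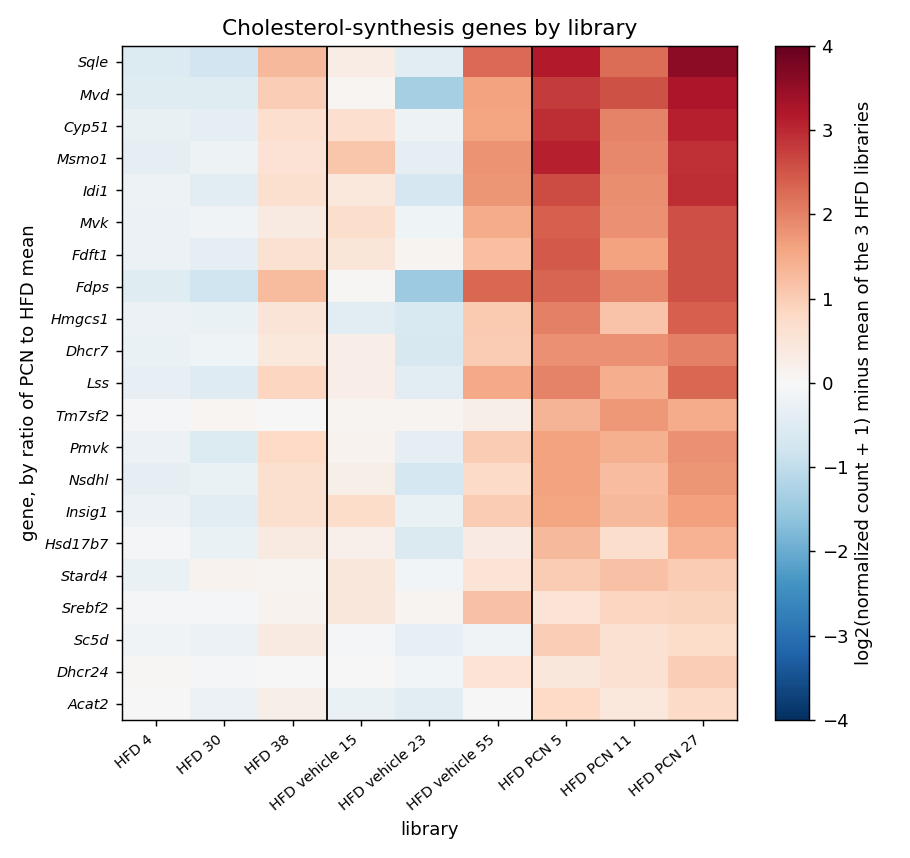
Log2 of normalized count plus 1, minus the mean of the 3 HFD libraries, for 21 of the 23 cholesterol genes called higher (rows, ordered by ratio) in the 9 high-fat-diet libraries (columns). All PCN cells are positive, from 0.42 to 3.57, and HFD 38 and HFD vehicle 55 are the warmest columns of their groups.

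Of 29 genes for lipid droplets and fatty acid uptake, 9 fell, 0 rose and 20 were not listed. The share called was 31%, against 3.15% over all genes, and edgeR passed 4. Cidea, a droplet-fusing protein of fatty liver, had 212, 71.5 and 157 in HFD, 7.7, 50.4 and 45.7 with vehicle and 1.1, 1.7 and 1.1 with PCN. The vehicle libraries lay between the other groups with no overlap. Cidea fell 112-fold, on 4 PCN reads in all (adjusted p = 4.56e-24 in the authors' deposited table, 0.00722 in edgeR). It was 4.23-fold lower with vehicle (adjusted p = 0.03929 in the authors' deposited table) and 26.6-fold lower with PCN than with vehicle (adjusted p = 0.0005056 in the authors' deposited table). By edgeR neither of these 2 differences passed, at adjusted p = 0.276 and 0.163.

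Cidec, which enlarges droplets, had 2326, 1229 and 3410 in HFD, 134, 506 and 441 with vehicle and 130, 176 and 211 with PCN. Its vehicle libraries were far below HFD and overlapped the PCN range. Cidec fell 13.5-fold (adjusted p = 6.04e-26 in the authors' deposited table, 0.0119 in edgeR), with vehicle 6.45-fold lower (adjusted p = 0.01993 in the authors' deposited table). Fabp2 and Fabp4, which carry fatty acids inside cells, fell 3.7- and 2.47-fold, with vehicle 2.16- and 2.5-fold lower. The uptake receptor Cd36 fell 1.72-fold, the droplet coat genes Plin2 and Plin4 fell 1.58- and 2.76-fold, G0s2, an inhibitor of triglyceride breakdown, fell 2.47-fold, and Mgll, the last lipase of that breakdown, fell 2.03-fold. For Fabp4, Cd36 and G0s2 the ratio of PCN to vehicle was 1.01 to 1.08, so vehicle and PCN means were close to each other.

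Fatty acid synthesis gave a mixed picture, with 2 of 29 genes higher and 4 lower (20.7% called, against 3.15% over all genes). Mogat1, which makes diacylglycerol, had 217, 163 and 148 in HFD, 39.5, 94.7 and 43.6 with vehicle and 31.4, 27.6 and 27.6 with PCN, and fell 6.09-fold (adjusted p = 7.45e-17 in the authors' deposited table, 0.00676 in edgeR). Elovl5, a fatty acid elongase, had 17212, 12649 and 19181 in HFD, 3058, 5065 and 3861 with vehicle and 3068, 5623 and 3188 with PCN. The vehicle and PCN libraries overlapped and lay below HFD in every case. Elovl5 fell 4.13-fold (adjusted p = 4.88e-12 in the authors' deposited table, 0.0346 in edgeR), as with vehicle (4.09-fold, adjusted p = 2.16e-13 in the authors' deposited table).

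The main lipogenic enzymes were not among the listed genes although vehicle differed from HFD for them. Elovl6 had 1292, 1012 and 1699 in HFD, 340, 352 and 420 with vehicle and 1115, 1484 and 1800 with PCN. The PCN libraries overlapped the HFD range while all vehicle libraries lay below it. Elovl6 was 3.6-fold lower with vehicle than in HFD (adjusted p = 6.33e-12 in the authors' deposited table, 0.09 in edgeR). It was 3.96-fold higher with PCN than with vehicle (adjusted p = 7.63e-15 in the authors' deposited table, 0.0206 in edgeR). Fasn, the fatty acid synthase, followed the same order, at 9417 ± 3260 in HFD, 4214 ± 647 with vehicle and 9481 ± 3350 with PCN. Scd1, the desaturase, had 214510, 163008 and 203026 in HFD, 2905, 12865 and 24263 with vehicle and 5616, 62374 and 15091 with PCN. Its PCN mean was 6.99-fold below HFD with no overlap, yet the gene was not listed, and PCN replicate 11 stood apart from the other PCN libraries. Over the whole list of 29 the authors' deposited table called 0 higher and 9 lower with vehicle, and 9 higher and 0 lower in PCN against vehicle.

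Of 44 PPARα targets and fatty acid oxidation genes 6 fell and 0 rose (13.6% called, against 3.15% over all genes). By edgeR 0 passed at the adjusted threshold and 6 at an unadjusted p under 0.05. Acaa1b, a peroxisomal thiolase, had 32066, 32751 and 33494 in HFD, 13566, 24852 and 14250 with vehicle and 10818, 16491 and 5146 with PCN. Vehicle and PCN libraries overlapped and all lay below HFD. Acaa1b fell 3.03-fold (adjusted p = 0.0001124 in the authors' deposited table, 0.142 in edgeR). Pdk4, which restrains glucose oxidation, fell 2.37-fold and Cyp4a14, a fatty acid hydroxylase, 2.28-fold.

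Of 36 genes of gluconeogenesis, glycolysis and insulin response, 9 fell and 2 rose (30.6% called, against 3.15% over all genes), and edgeR passed 2. G6pc, which releases free glucose from the liver, had 4850, 4571 and 1892 in HFD, 5875, 4549 and 400 with vehicle and 394, 664 and 141 with PCN. Vehicle replicate 55 was the exception in its group, inside the PCN range. G6pc fell 9.43-fold (adjusted p = 0.001117 in the authors' deposited table, 0.0586 in edgeR), and its vehicle mean was 1.05-fold below HFD. Pck1, the other gatekeeper of gluconeogenesis, fell 2.21-fold (adjusted p = 0.04582 in the authors' deposited table, 0.783 in edgeR). Ppp1r3c, which directs glycogen synthesis, fell 5.73-fold, from 3240 ± 831 to 566 ± 308, and here too vehicle replicate 55 (687) lay inside the PCN range.

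Ldha, lactate dehydrogenase, separated PCN from both other groups. It had 16483, 16441 and 14322 in HFD, 14580, 13101 and 20514 with vehicle and 8024, 7019 and 6357 with PCN. Every PCN library lay below every other library. Ldha fell 2.21-fold (adjusted p = 2.42e-11 in the authors' deposited table, 0.0374 in edgeR), with vehicle at 1.02-fold of HFD. Pcx, which feeds pyruvate into gluconeogenesis, fell 1.75-fold. Igfbp2, a binding protein of insulin-like growth factors, rose 6.43-fold, from 1323, 1882 and 737 to 11198, 8066 and 6101 (adjusted p = 6.89e-14 in the authors' deposited table, 0.0321 in edgeR). Vehicle stood between, 2.99-fold above HFD (adjusted p = 0.005638 in the authors' deposited table), and Igfbp2 was not called in PCN against vehicle.

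**Figure D4:**
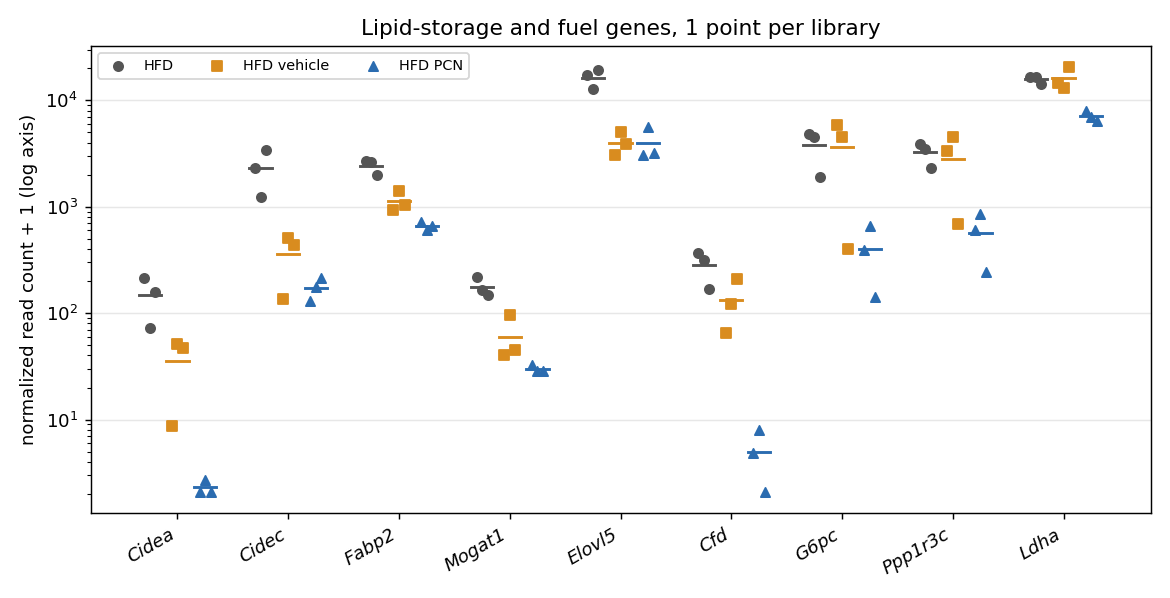
Normalized read count plus 1 on a log axis for 9 lipid-storage and fuel genes, 1 point per library, with HFD as circles, HFD vehicle as squares and HFD PCN as triangles, and a line at each group mean. Vehicle points lie at PCN levels for Elovl5 (3058 to 5065), between the groups for Cidea (7.7 to 50.4) and at HFD levels for Ldha (13101 to 20514).

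Cfd, which encodes the complement factor adipsin, gave the largest fall after Cidea among the genes with a mean of at least 50. It had 367, 313 and 168 in HFD, 63.6, 120 and 209 with vehicle and 3.9, 6.9 and 1.1 with PCN. The HFD and vehicle ranges overlapped and all PCN libraries were far below both. Cfd fell 71.3-fold, and 113-fold without PCN replicate 11 (adjusted p = 1.17e-40 in the authors' deposited table, 0.00667 in edgeR). Serpina12, which encodes the adipokine vaspin, fell 14.6-fold, and 27.2-fold without PCN replicate 11 (51.7 there against 14.0 and 14.9 in the other PCN libraries). It was 3.63-fold lower with vehicle than in HFD (adjusted p = 0.01922 in the authors' deposited table, 0.258 in edgeR). Its PCN mean was 4.03-fold below vehicle, but the gene was not called in the authors' comparison of PCN against vehicle. Corin, a serine protease, fell 14.3-fold with vehicle 7.02-fold lower (adjusted p = 0.0001981 in the authors' deposited table). Lamb3, a laminin chain, fell 6.5-fold, from 594, 610 and 361 to 91.4, 70.7 and 78.6, with vehicle between at 142, 213 and 249 (adjusted p = 7.57e-23 in the authors' deposited table, 0.00667 in edgeR).

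Of 37 cell cycle genes 2 fell and 1 rose (8.1% called, against 3.15% over all genes). Cdkn1a, the cell cycle inhibitor p21, had 716, 741 and 454 in HFD, 327, 678 and 193 with vehicle and 98.7, 129 and 56.3 with PCN, and fell 6.72-fold with no overlap (adjusted p = 4.45e-17 in the authors' deposited table, 0.0138 in edgeR). The stress-response relatives Gadd45g and Gadd45b moved in opposite directions. Gadd45g fell 10.6-fold, or 6.83-fold without HFD replicate 30, with vehicle at 1.22-fold of HFD. Gadd45b rose 2.8-fold, with vehicle at 2.74-fold (adjusted p = 4.83e-05 in the authors' deposited table).

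Of 42 acute-phase genes 11 rose, 3 fell and 28 were not listed (33.3% called, against 3.15% over all genes). By edgeR 0 passed at the adjusted threshold, 14 at an unadjusted p under 0.05, and 7 adjusted without PCN replicate 11. Over all listed genes edgeR also passed more without that library (121 higher and 56 lower, against 85 and 53). It passed fewer without each other library. In the vehicle comparison the authors' deposited table called 14 of the 41 genes measured there higher and 0 lower, and in PCN against vehicle 0 higher and 4 lower. Orm1, an orosomucoid plasma protein, had 5162, 5524 and 5061 in HFD, 27564, 16540 and 34867 with vehicle and 35232, 10696 and 32837 with PCN. Both injected groups lay above HFD in every library, with PCN replicate 11 the lowest injected library. Orm1 rose 5-fold (adjusted p = 1.01e-08 in the authors' deposited table, 0.0594 in edgeR), as with vehicle (5.01-fold, adjusted p = 2.86e-15 in the authors' deposited table), and the ratio of PCN to vehicle was 0.997.

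PCN replicate 11 was the lowest PCN library for each of the 11 risers except Serpina1a. Orm2 had 597, 571 and 585 in HFD, 6098, 5060 and 10263 with vehicle and 8670, 699 and 5598 with PCN, so that PCN replicate 11 lay close to the HFD libraries. Orm2 rose 8.54-fold (adjusted p = 0.04886 in the authors' deposited table, 0.143 in edgeR), 12.2-fold without PCN replicate 11 and 5.39-fold without PCN replicate 5. Its vehicle mean was 12.2-fold that of HFD (adjusted p = 3.8e-38 in the authors' deposited table, 0.0211 in edgeR). Over the 11 risers the median log2 difference from the HFD mean was 1.77, 0.45 and 1.64 in PCN replicates 5, 11 and 27 and 1.77, 1.03 and 2.37 in vehicle replicates 15, 23 and 55. The same library was the lowest PCN library over the 24 phase I risers, at 1.07 against 2.3 and 1.98, and over the 24 phase II risers with vehicle counts, at 0.83 against 1.33 and 1.24. Whether depth or another property of the library has a part in this was not tested.

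Apcs, the serum amyloid P component, rose 5.35-fold with vehicle at 3.9-fold, and Fgl1, a fibrinogen-like hepatokine, rose 3.89-fold with vehicle at 5.06-fold. Ambp, the precursor of the protease inhibitor bikunin, rose 2.95-fold. Ambp had 32936, 29497 and 29814 in HFD, 57336, 54834 and 58006 with vehicle and 112617, 63409 and 96050 with PCN, 3 separate ranges in rising order. It was not called in the authors' comparison of PCN against vehicle. Itih3 and Itih4, which encode heavy chains that bikunin carries, rose 2.51- and 2.15-fold, below their vehicle ratios of 4.19 and 4.18. The genes that fell were Socs3, an inhibitor of cytokine signalling, Serpina3g and Cd14. Saa1, serum amyloid A, was 13.7-fold higher with vehicle (adjusted p = 1.37e-05 in the authors' deposited table) and was not listed for PCN.

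Of 42 complement and coagulation genes 8 rose and Cfd fell (21.4% called, against 3.15% over all genes), and edgeR passed 2. C2, a protease of the complement cascade, had 274, 317 and 288 in HFD, 512, 394 and 491 with vehicle and 1010, 759 and 831 with PCN. The 3 groups did not overlap. C2 rose 2.96-fold (adjusted p = 2.19e-15 in the authors' deposited table, 0.0083 in edgeR). C3, the central complement protein, rose 2.2-fold with vehicle at 3.01-fold, and C8a, part of the membrane attack complex, rose 2.93-fold with vehicle at 3.17-fold.

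**Figure D5:**
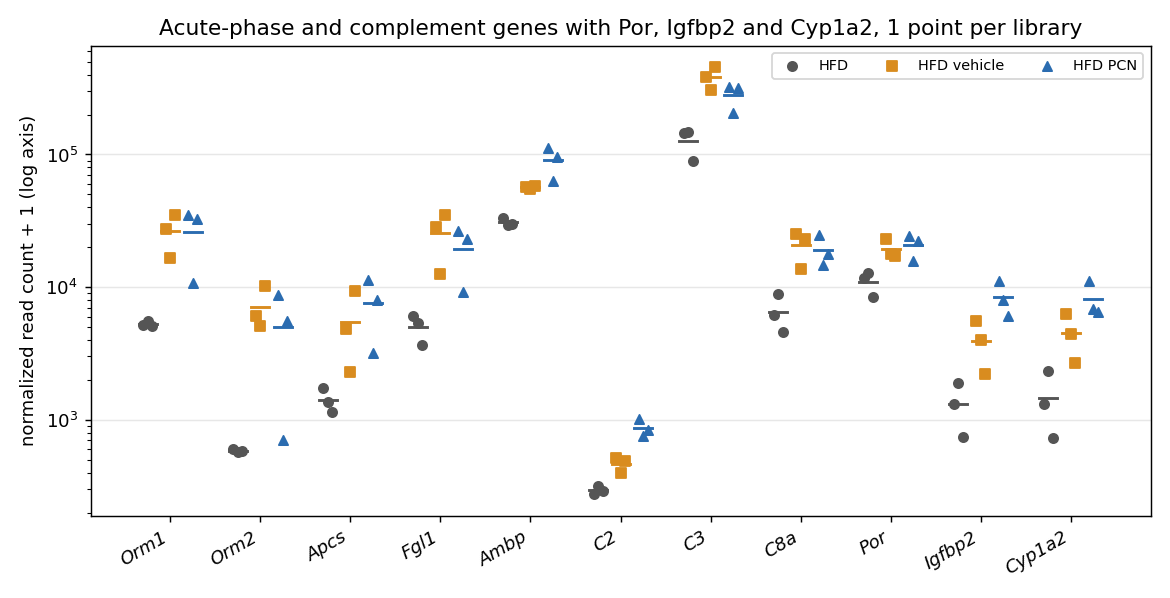
Normalized read count plus 1 on a log axis for acute-phase and complement genes with Por, Igfbp2 and Cyp1a2, 1 point per library, with HFD as circles, HFD vehicle as squares and HFD PCN as triangles, and a line at each group mean. Vehicle and PCN points both lie above HFD for Orm1, and 1 PCN point (699) lies beside the HFD points for Orm2 (571 to 597).

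Ccl9, a chemokine, was the 1 gene called of 39 interferon and chemokine genes (2.6%, against 3.15% over all genes). It had 354, 407 and 304 in HFD, 680, 488 and 191 with vehicle and 1635, 1180 and 1388 with PCN. All PCN libraries lay above all others, and Ccl9 rose 3.95-fold (adjusted p = 1.89e-21 in the authors' deposited table, 0.00667 in edgeR). Psat1, an enzyme of serine synthesis, was the 1 gene called of 47 amino acid and urea cycle enzymes (2.1%, also below 3.15%). It was 5.59-fold higher, or 8.97-fold without HFD replicate 38.

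Of 52 sex-biased genes 7 rose and 3 fell (19.2% called, against 3.15% over all genes). The risers were Cyp3a44, Cyp3a16, Cyp3a41b, the sulfotransferase Sult3a1, the repressor Cux2 (5.41-fold), Gstp1 and Ugt2b38. The list mixes male- and female-biased genes, and whether the changes follow the direction of bias was not tested. Hao2, a hydroxyacid oxidase, fell 18.1-fold, from 61.2, 52.4 and 120 to 5.6, 5.2 and 2.1, Cyp17a1, a steroid hydroxylase, fell 3.65-fold and Mup20, a urinary pheromone carrier, 2.06-fold. Of 26 zonation markers 1 fell (Pck1), 5 rose and 20 were not listed (23.1% called, against 3.15% over all genes), and edgeR passed 0. The risers were Axin2 and Tbx3, targets of Wnt signalling around the central vein, Lgr5, the receptor that augments it, Cyp1a2 and Rnase4. Other central-vein markers, Glul, Oat, Slc1a2, Rhbg and Cyp2e1, were among those not listed. Tbx3 rose 1.96-fold with vehicle at 2.49-fold, and Lgr5 1.9-fold with vehicle at 1.3-fold. Axin2 had 85.0, 74.8 and 93.0 in HFD and 136, 136 and 137 with PCN, 1.62-fold higher (adjusted p = 0.04316 in the authors' deposited table, 0.16 in edgeR), with vehicle at 1.57-fold. The clock genes Arntl and Clock fell 2.53- and 1.6-fold, the 2 called of 22 (9.1%, against 3.15% over all genes). The time of day of tissue collection is not given in the labels.

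Of 20 bile acid genes Akr1d1 and Cyp27a1, both enzymes of bile acid synthesis, rose 2.3- and 1.54-fold, and the sterol carrier Scp2 fell 1.99-fold. The share called was 15%, against 3.15% over all genes, and Cyp7a1, the rate-limiting enzyme, was not listed. Of 25 lipoprotein genes 4 fell and 2 rose (24% called, against 3.15% over all genes). Apoe, which directs remnant uptake, fell 1.73-fold, from 372209, 346702 and 346541 to 222631, 218095 and 175131 (adjusted p = 1.35e-05 in the authors' deposited table, 0.436 in edgeR). Vehicle libraries, at 313709, 346813 and 311322, stayed near HFD. Apoa4, an apolipoprotein of triglyceride-rich particles, fell 5.03-fold and Apom, which carries sphingosine phosphate, rose 2.37-fold. Ttr, which encodes transthyretin and was 1 of the 9 hepatocyte markers, fell 1.85-fold.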

How the data were processed

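Liver RNA libraries were aligned with HISAT2, counted with HTSeq and tested with DESeq2 on GRCm38/mm10, per the submitters' processing notes, with versions not given in the sources used here. Raw read counts per gene were deposited by the authors in tables of 6 pairwise comparisons. The vehicle against HFD table was complete, and the others listed genes that passed an adjusted p of 0.05. Size factors and the number of genes tested were recovered from the deposited means and adjusted p-values, and counts were put on 1 scale for the 12 libraries. Of 15768 count values present in more than 1 table, 0 differed.

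Calls are the authors' deposited DESeq2 adjusted p-values. As alternatives, edgeR 4.0.16 (quasi-likelihood, dispersion prior from the complete table) and DESeq2 1.42.0 in R 4.3.3 were run on the listed counts, with Benjamini-Hochberg adjustment over 25656 genes. The edgeR script was tested on simulated data. Other settings were a stricter threshold, filters on low means, re-estimated size factors and leaving out each library. Named genes were the 12 largest ratios in each direction with a mean of at least 50, up to 4 called genes per list by lowest adjusted p, and a fixed set of drug, lipid and acute-phase genes. Others were named from the lists after their values were seen. The members and lists were chosen with earlier results of these data known. PCN library totals were estimated from size factors. Start-site windows came from RefSeq (GRCm38.p6), and 601 members had one. The motifs AGTTCA and TCACNCCAC were searched on both strands. Figures and tables used Python 3.11.15. Some genes of the lists are counted but not reported here by name.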

Additional observations from a re-analysis of the deposited data

How the results depend on the processing

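The number of called genes depended on the test and on single libraries. Against 487 higher and 322 lower genes in the authors' deposited table, a DESeq2 refit on the listed counts passed 349 and 223. By edgeR 85 and 53 passed, and 83 and 65 with re-estimated size factors. In the refit and in edgeR alike, a gene that was not listed could not pass. A deposited adjusted p under 0.01 kept 317 and 195, and a ratio of means of at least 2 kept 193 and 185. Leaving out 1 library at a time, edgeR passed 0 to 121 higher and 0 to 56 lower genes. In vehicle against HFD edgeR passed 1 gene (1725 at an unadjusted p under 0.05), 283 with no filter and 0 to 9 without 1 library, where the authors' deposited table had 206. In PCN against vehicle the authors' deposited table had 442 genes and edgeR 20, with 0 to 28 without 1 library. The cause of these differences was not tested. Over the ratios of the named genes, 769 values under the alternatives moved by less than 1 pooled SD of the libraries on the log2 scale, 7 moved by more and 0 reversed. Removing 1 of 3 libraries can hardly move a group mean by 1 SD, and most of these genes were chosen for differing. These counts therefore say little about how stable the ratios were. Ratios that moved by over 1.5 times without 1 library lie partly within that SD. The list counts without each library, and PCN against vehicle without each library, were added after seeing the data. No paired analysis was possible because the groups share no replicate numbers. With 3 libraries a group, and with uncalled genes of the PCN comparison not analysed here, a gene that is not listed may still differ.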

Other observations

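The genes of the cytosolic ribosome were a further large group among those that rose, chosen after their values were seen. Of 86 measured ribosomal protein genes 76 were called higher and 0 lower in the authors' deposited table, where 1.9% of all genes were called higher. The median ratio of the 76 was 1.81 (1.45 to 2.84), and 22 passed edgeR. The median vehicle ratio of the 76 genes was 1.11, and 0 of them were called in the vehicle table. Many ribosomal protein genes have processed pseudogenes that can share reads.

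Immediate early genes, which respond within minutes to stimuli and to tissue handling, were also chosen after their values were seen. Of 13 measured genes 6 fell (Btg2, Csrnp1, Dusp1, Fos, Junb and Zfp36), from 1.88-fold for Zfp36 to 2.62-fold for Dusp1, and Myc rose 2.67-fold. Over all genes 1.26% were called lower and 1.9% higher. By edgeR 0 of the 7 passed the adjusted threshold and 7 an unadjusted p under 0.05. Over the 6 that fell, the median log2 difference from the HFD mean was -1.07, -0.85 and -1.5 in PCN replicates 5, 11 and 27. Of 11 tubulin genes 5 rose, against 1.9% of all genes called higher. The 5 rose by 1.69- to 2.3-fold, and 0 passed edgeR when adjusted, 5 when not. Of these, Tubb4b overlapped between HFD and PCN libraries.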
